A study of Homo sapiens with 6 samples.

Results

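The chromatin remodelers of the SWI/SNF, ISWI, CHD and INO80 families, with related ATPases of the SNF2 type, were examined in H9 cells upon inhibition of CDK9. Members were chosen by gene name, without use of the measured values, and made up 47 of the 61541 genes in the RNA-seq table. H9 is an established human line of cutaneous T-cell lymphoma, labelled as WT in genotype, and nothing in the labels states that the libraries came from separate cultures, so that p-values measure the spread between these libraries. In 3 libraries the cells had received the vehicle DMSO, and in 3 they had received AZD4573, a selective CDK9 inhibitor, at 50 nM for 4 h. Both groups otherwise shared the same cells and medium, but the labels give no time for the DMSO libraries. The dose comes from the study's figure legends.

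Total counts ranged from 70367303 to 76571157 with DMSO and from 52101868 to 63795185 with AZD4573. Levels of the remodelers are given as CPM, a gene's counts scaled to a fixed library total with edgeR's TMM factors. By library total alone, a count of 0 allows up to 0.0392 to 0.0576 CPM (3 counts of the total, counting error only), and the levels of marker genes in this paragraph are on that scale too. Of 8 T-cell markers, CD3D, CD3E, CD3G, LCK, PTPRC and GATA3 lay between 136 and 874 CPM and CD4 between 3.77 and 7.05 CPM, whereas CD2 did not exceed 0.170 CPM in any library. The summed level of this list was 1296 to 1310 CPM with DMSO and 1901 to 2023 CPM with AZD4573. PTPRC stood at 422 to 433 CPM with DMSO and 806 to 874 CPM with AZD4573, and GATA3 at 213 to 233 and 315 to 367 CPM. LCK hardly differed (194 to 202 and 197 to 199 CPM), so the sum does not stand for each marker. Among markers of other cell types, CD79A (57.2 to 94.2 CPM) and EPCAM (126 to 171 CPM) were present, whereas MS4A1, CD14, LYZ, CSF1R, KRT8 and PDGFRB stayed at or below 0.576 CPM and COL1A1 lay between 3.39 and 7.71 CPM. Their part in the results below was not tested.

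Chromatin remodelers use ATP to slide, evict or exchange nucleosomes and thereby set which promoters and enhancers can be reached. SWI/SNF complexes share a catalytic subunit and part of a core, and differ by the subunits that define canonical BAF (cBAF), PBAF and non-canonical BAF (ncBAF). Not every subunit listed under the core below is in each of these complexes. ISWI enzymes space nucleosomes, CHD enzymes read histone marks and INO80 and SRCAP exchange the histone variant H2A.Z. Genes of SWI/SNF subunits are frequent targets of mutation in cancer, and CHD1 is known to travel with the elongating RNA polymerase II (RNAP2) that CDK9 phosphorylates.

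The remodeler transcripts moved in both directions upon AZD4573 treatment. With an adjusted p under 0.05 in edgeR's quasi-likelihood test (Benjamini-Hochberg over 17678 genes) and a fold change of at least 1.5, 14 members were called lower, which was 29.8% of them against 23.7% of all genes tested. At the same thresholds 2 members, SMARCD3 and CHD5, were called higher (4.26% of members against 22.7% of all genes), and neither was past the test when the libraries were scaled to mitochondrial mRNAs. By the test alone, 26 members fell (55.3%, against 37.4% of all genes) and 15 rose (31.9%, against 37.3%), although 0 were higher by the test with mitochondrial scaling. With that scaling 53.4% of all genes were called lower and 10.0% higher. The same 26 and 15 members were those in which the DMSO and AZD4573 libraries did not overlap, as was the case for 38.7% of all genes in the lower direction and 39.0% in the higher direction. The 6 members left were INO80B, INO80D, INO80E, BRD9, CHD6 and SMARCA1. All 47 passed the filter on low counts, SMARCA1 with only 4 to 16 counts in a library.

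The median log2 fold change of the members was -0.15 (quartiles -0.73 and 0.21), beside 0.03 over all genes tested (quartiles -0.59 and 0.58) and -0.07 over the 13423 protein-coding genes tested. Of these protein-coding genes, 27.2% were called lower and 18.2% higher. Summed over the members, 5941 ± 82.2 CPM (SD, n = 3) with DMSO compared with 5381 ± 84.3 CPM (SD, n = 3) with AZD4573.

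**Figure D1:**
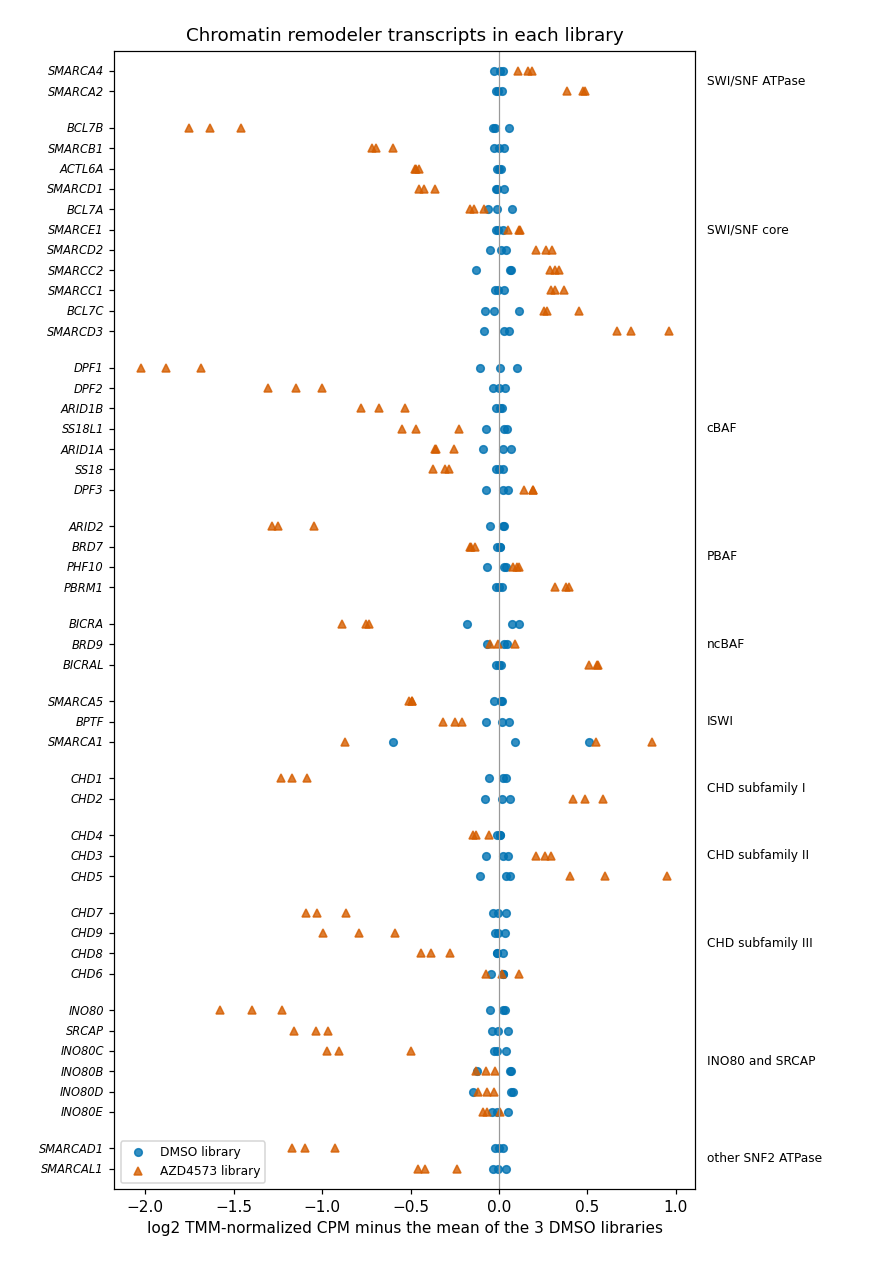
Log2 TMM-normalized CPM of each of the 47 remodeler genes in each library, minus the mean of the 3 DMSO libraries (x axis), with genes grouped by role (y axis). Circles are DMSO libraries and triangles AZD4573 libraries, and in 26 genes the triangles all lie to the left of the circles, in 15 all to the right, the latter direction being turned to the left for all but SMARCD3 when libraries are scaled to mitochondrial mRNAs.

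The directions above are relative to the bulk of the transcriptome. Reads on the 13 mRNAs encoded by mitochondria, whose DNA is copied by a polymerase other than RNAP2, took 3.04% to 3.22% of counts with DMSO and 4.67% to 4.98% with AZD4573. Scaled to these mRNAs, the median of all genes tested moved to -0.71 and that of the members to -0.89. With this scaling 34 members were called lower, beside 53.4% of all genes, and 0 higher, beside 10.0% of all genes. In 46 of 47 members the fold change was negative. The exception was SMARCD3 (0.056, edgeR adjusted p = 0.565). In the 17 members that turned from positive to negative, the sign changed with the scaling, which moves all genes by nearly the same amount. Relative to the median of all genes, the median of the members was -0.18 with TMM, with library size and with mitochondrial scaling. In each, 31 of 47 members lay below the median of all genes. These relative values hardly depend on the scaling by construction, so their agreement was no test. Shares of counts cannot tell a rise of mitochondrial mRNAs from a fall of the other mRNAs, and neither was tested. Nor do they give the number of cells or the RNA per cell.

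**Figure D2:**
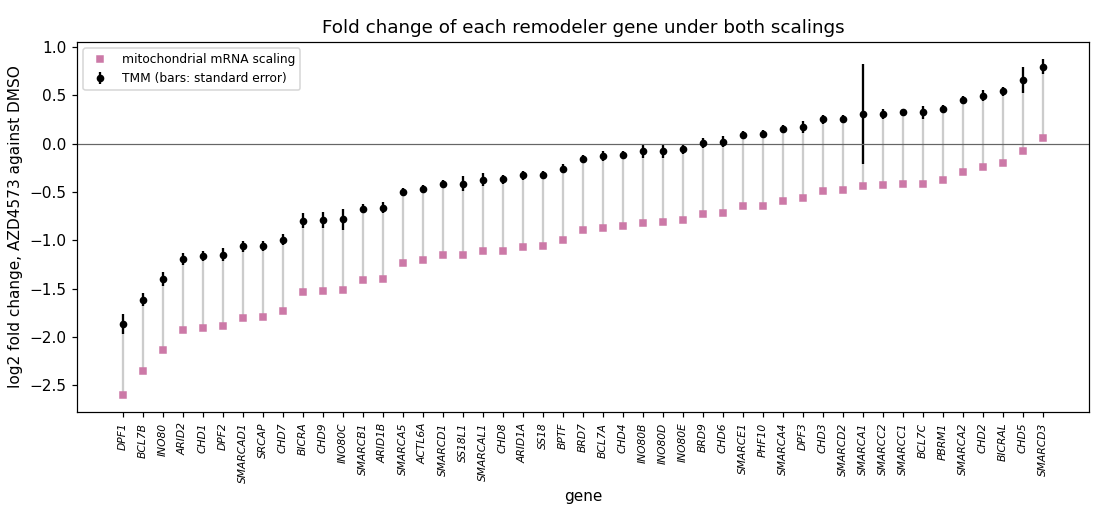
Log2 fold change of AZD4573 against DMSO (y axis) for each remodeler gene (x axis), by TMM (black circles, bars are standard errors) and by scaling to 13 mitochondrial mRNAs (pink squares). The order of the genes is nearly the same under both, while 17 genes, from BRD9 to CHD5, lie above 0 by TMM and below 0 by mitochondrial scaling.

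The catalytic subunits of SWI/SNF both rose by TMM, and both were lower with mitochondrial scaling. SMARCA2 (BRM) stood at 202, 207 and 203 CPM with DMSO and 267, 286 and 283 CPM upon treatment, and the groups did not overlap (log2 fold change 0.45, SE 0.041, edgeR adjusted p = 3.03e-07; -0.29 with mitochondrial scaling). SMARCA4 (BRG1), which occupies the same place in the complex as SMARCA2, stood at 272, 279 and 281 CPM with DMSO and 298, 315 and 311 CPM upon treatment, again without overlap (log2 fold change 0.15, SE 0.040, edgeR adjusted p = 0.00342; -0.59 with mitochondrial scaling). With library size as the only scaling (edgeR adjusted p = 0.258) or without a filter (0.069), SMARCA4 was not past the test. Over all alternatives its adjusted p ran from 1.58e-08 to 0.258, the lowest with mitochondrial scaling in the lower direction. Within each library the ratio of SMARCA2 to SMARCA4, which no scaling of libraries can move, was 0.601 per length of exon with DMSO and 0.739 with AZD4573.

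Among the 11 subunits of the SWI/SNF core, 5 fell (37.4% of all genes did), 2 of them past the fold limit (23.7% of all genes). By TMM 6 rose (37.3% of all genes did), 1 of them past the fold limit (22.7% of all genes). All 6 except SMARCD3 were negative with mitochondrial scaling. The largest fall was that of BCL7B, an accessory subunit of the core (chr7:73536356-73557690, minus strand, GRCh38). BCL7B stood at 150.2, 142 and 141 CPM with DMSO and 52.6, 46.5 and 42.9 CPM upon treatment, so that 32.7% of the DMSO level was left (log2 fold change -1.61, SE 0.065, edgeR adjusted p = 1.67e-10). BCL7A and BCL7C are its paralogs and occupy the same kind of place. BCL7A stood at 47.9, 45.3 and 43.8 CPM with DMSO and 40.7, 41.3 and 43.1 CPM upon treatment (log2 fold change -0.13, SE 0.053, edgeR adjusted p = 0.0403). Its call was lost without DMSO replicate 1 (edgeR adjusted p = 0.0921), DMSO replicate 2 (0.0645), AZD4573 replicate 1 (0.0713) or AZD4573 replicate 2 (0.0926). The same held by edgeR with the replicate number as a block (0.0602) and with at least 10 counts in every library (0.122), and by DESeq2 (0.056). Over all alternatives the adjusted p of BCL7A ran from 6.88e-09 to 0.122. BCL7C stood at 28.8, 25.2 and 26.1 CPM with DMSO and 32.2, 31.8 and 36.5 CPM upon treatment, with the treated libraries above the controls (log2 fold change 0.33, SE 0.070, edgeR adjusted p = 0.000828; -0.41 with mitochondrial scaling).

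SMARCB1, the subunit that contacts the nucleosome and is lost in rhabdoid tumors, stood at 122, 120.0 and 117 CPM with DMSO and 79.1, 72.9 and 74.2 CPM upon treatment and fell in every treated library (log2 fold change -0.67, SE 0.046, edgeR adjusted p = 1.73e-08). Of its exon bases, 17.7% are shared with DERL3 on the opposite strand, which did not exceed 3.07 CPM. ACTL6A, an actin-related subunit, fell to 72.5% of the DMSO level (log2 fold change -0.46). The scaffold subunits SMARCC1 and SMARCC2 rose by TMM by 0.32 and 0.31 on the log2 scale and were at -0.41 and -0.43 with mitochondrial scaling. SMARCE1, a DNA-binding subunit, was past the test with a small difference (log2 fold change 0.094, SE 0.039, edgeR adjusted p = 0.0446), was at -0.65 with mitochondrial scaling and at -0.010 with library size alone. The call of SMARCE1 was lost without DMSO replicate 2 (edgeR adjusted p = 0.213), DMSO replicate 3 (0.164), AZD4573 replicate 2 (0.15) or AZD4573 replicate 3 (0.143), and with the replicate block (0.0766; 9.01e-09 to 0.802 over all alternatives).

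The 3 interchangeable SMARCD subunits, which link the complex to transcription factors, moved apart. SMARCD1 stood at 129, 126 and 125 CPM with DMSO and 98.6, 94.3 and 92.4 CPM upon treatment and fell (log2 fold change -0.41, SE 0.043, edgeR adjusted p = 1.15e-06). SMARCD2 stood at 216, 212 and 203 CPM with DMSO and 243, 253 and 258 CPM upon treatment and rose by TMM (log2 fold change 0.26, SE 0.042, edgeR adjusted p = 8.66e-05; -0.48 with mitochondrial scaling). SMARCD3, known from muscle (chr7:151238764-151277896, minus strand, GRCh38), stood at 15.6, 15.3 and 14.2 CPM with DMSO and 23.9, 25.3 and 29.3 CPM upon treatment. This was the largest rise of the members by TMM, to 174% of the DMSO level (log2 fold change 0.80, SE 0.079, edgeR adjusted p = 6.67e-07; 0.056 with mitochondrial scaling). Of the exon bases of SMARCD3, 28.4% are shared with other genes, most of them with CHPF2 on the opposite strand, which fell from 84.9 to 91.9 CPM to 34.8 to 36.8 CPM. Whether reads were assigned by strand is not certain, so that reads of SMARCD3 and CHPF2 may not have been told apart.

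Of 7 subunits listed under cBAF, of which SS18 and SS18L1 also belong to ncBAF, 6 fell (37.4% of all genes did), 3 of them past the fold limit (23.7% of all genes), and DPF3 was the exception by TMM (0.18; -0.56 with mitochondrial scaling). DPF1, a reader of modified histone tails known from neurons (chr19:38211006-38229714, minus strand, GRCh38), had the largest fall of all members, from 14.0, 15.1 and 16.2 CPM to 4.70, 4.09 and 3.70 CPM, or 27.5% of the DMSO level (log2 fold change -1.86, SE 0.10, edgeR adjusted p = 1.83e-09). DPF2, its ubiquitous counterpart, stood at 67.4, 68.8 and 65.7 CPM with DMSO and 33.7, 30.3 and 27.2 CPM upon treatment (log2 fold change -1.15, SE 0.068, edgeR adjusted p = 3.98e-09). The spread among the replicates was small beside both falls. DPF3 stood at 19.3, 20.6 and 21.0 CPM with DMSO and 23.1, 22.4 and 23.2 CPM upon treatment, with an edgeR adjusted p of 0.0173 that rose to 0.0748 without DMSO replicate 1, to 0.0536 without DMSO replicate 2 and to 0.057 without AZD4573 replicate 3 (3.87e-06 to 0.32 over all alternatives).

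ARID1A, the DNA-binding subunit most often mutated in cancer, stood at 326, 352 and 363 CPM with DMSO and 269.9, 290.3 and 271 CPM upon treatment (log2 fold change -0.33, SE 0.049, edgeR adjusted p = 3.78e-05). ARID1B, which takes the same place, stood at 231, 234 and 236 CPM with DMSO and 161, 146 and 136 CPM upon treatment (log2 fold change -0.66, SE 0.055, edgeR adjusted p = 1.23e-07), and so kept 63.2% of the DMSO level, where ARID1A kept 79.8%. SS18 and SS18L1, the paralogous subunits of both complexes, fell by 0.32 and 0.41 on the log2 scale.

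In PBAF, ARID2 and PBRM1 moved in opposite directions by TMM. ARID2, the DNA-binding subunit, fell from 82.1, 86.9 and 86.6 CPM to 41.2, 35.0 and 35.8 CPM, or 43.8% of the DMSO level (log2 fold change -1.19, SE 0.062, edgeR adjusted p = 1.27e-09). PBRM1, the polybromo subunit that reads acetylated histones, rose by TMM by 0.36 on the log2 scale, to 129% of the DMSO level (edgeR adjusted p = 1.58e-06; -0.37 with mitochondrial scaling). BRD7, the bromodomain subunit of PBAF, stood at 285, 289 and 289 CPM with DMSO and 261, 258 and 257 CPM upon treatment (log2 fold change -0.15, SE 0.037, edgeR adjusted p = 0.00202), with 41.9% of its exon bases shared, nearly all with ADCY7 on the opposite strand. PHF10 was barely past the test by TMM (log2 fold change 0.098, SE 0.041, edgeR adjusted p = 0.0465; -0.64 with mitochondrial scaling; -0.0069 with library size alone), and it was not past it with any of the 6 libraries left out (edgeR adjusted p from 0.0746 to 0.173) or with the replicate block (0.0678; 1.55e-08 to 0.89 over all alternatives).

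The ncBAF pair BICRA and BICRAL, alternative scaffold subunits, also parted. BICRA stood at 34.3, 40.9 and 42.0 CPM with DMSO and 23.3, 23.1 and 21.0 CPM upon treatment and fell (log2 fold change -0.80, SE 0.078, edgeR adjusted p = 5.94e-07). BICRAL stood at 32.4, 32.1 and 31.7 CPM with DMSO and 45.7, 47.1 and 47.3 CPM upon treatment and rose by TMM (log2 fold change 0.54, SE 0.049, edgeR adjusted p = 2.66e-07; -0.20 with mitochondrial scaling). BRD9, the bromodomain subunit of ncBAF, stood at 69.6, 75.1 and 74.2 CPM with DMSO and 77.6, 72.6 and 70.4 CPM upon treatment, and its groups overlapped (log2 fold change 0.010, SE 0.052, edgeR adjusted p = 0.867; -0.73 with mitochondrial scaling).

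Taken as a family, 14 of 27 SWI/SNF subunits fell (37.4% of all genes did), 12 rose by TMM (37.3% of all genes) and BRD9 was not past the test, with a median of -0.13. All of the 12 but SMARCD3 were negative with mitochondrial scaling.

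Of the ISWI genes, SMARCA5 (SNF2H), the main ISWI ATPase, stood at 206, 206 and 200.1 CPM with DMSO and 145, 145 and 143 CPM upon treatment. Its treated libraries lay close together and below the controls (log2 fold change -0.50, SE 0.039, edgeR adjusted p = 5.88e-08). BPTF, the large NURF subunit that reads H3K4 methylation, fell to 83.6% of the DMSO level (log2 fold change -0.26, SE 0.047, edgeR adjusted p = 0.000211). SMARCA1 (SNF2L), the ISWI ATPase of neural tissue, stood at 0.153, 0.205 and 0.0950 CPM with DMSO and 0.0786, 0.211 and 0.262 CPM upon treatment. At 4 to 16 counts in a library the groups of SMARCA1 overlapped, and a difference was not detectable at this depth (log2 fold change 0.30, SE 0.52, edgeR adjusted p = 0.606).

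Of the CHD enzymes, CHD1 and CHD2 were the clearest case of close relatives that parted. CHD1 (chr5:98853985-98929007, minus strand, GRCh38), which binds H3K4 trimethylation at active genes, stood at 92.7, 98.9 and 97.7 CPM with DMSO and 41.0, 45.5 and 42.8 CPM upon treatment and fell to 44.7% of the DMSO level (log2 fold change -1.16, SE 0.052, edgeR adjusted p = 3.85e-10). CHD2 (chr15:92886203-93027996, plus strand, GRCh38), its only paralog in the subfamily, stood at 88.0, 94.1 and 96.8 CPM with DMSO and 124, 139 and 130.2 CPM upon treatment and rose by TMM to 141% of the DMSO level (log2 fold change 0.50, SE 0.053, edgeR adjusted p = 1.35e-06; -0.24 with mitochondrial scaling). Per kilobase of annotated exon, CHD1 lay above CHD2 in every DMSO library and below it in every AZD4573 library. The group means of CHD1 went from 8.92 to 3.98 CPM and those of CHD2 from 4.34 to 6.13 CPM per kilobase.

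The long non-coding RNA CHASERR is transcribed from just upstream of CHD2 and is known to restrain it in cis. It is no remodeler and was looked up after its values had been seen. CHASERR stood at 61.6, 60.0 and 59.5 CPM with DMSO and 29.9, 29.2 and 30.8 CPM upon treatment, with groups far apart (log2 fold change -1.01, SE 0.049, edgeR adjusted p = 7.32e-10). With mitochondrial scaling CHASERR was at -1.75 and CHD2 at -0.24, so that both were then lower. Whether the level of CHASERR bears on that of CHD2 in these cells was not tested. CHASERR and CHD2 share 121 exon bases, and 0.579% of the exon bases of CHD2 are shared with any other gene.

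The sequences around the transcription start sites of CHD1 and CHD2 are shown because this pair of paralogs lay on opposite sides of 0 by TMM, and those of BCL7B and BCL7C because their ratio changed most. Each is the RefSeq window of 250 bases before and 50 bases after a start (GRCh38.p14), read 5′ to 3′ on the strand of the gene, with motif matches on either strand in capitals. The motifs marked are the GC box, spelled GGGCGG, the CCAAT box, which is its own spelling, and the core of ETS factors, spelled CCGGAAG. Also searched, and absent from these 4 windows, were a TATA box (TATAAA), a core of YY1 sites that reads AAGATGGC, a core of GATA sites that reads AGATAA and the palindromic core of NRF1. The windows are chr5:98928958-98929257 (minus strand), chr15:92900074-92900373 (plus strand), chr7:73557187-73557486 (minus strand) and chr16:30894028-30894327 (minus strand), and those of CHD2 and BCL7B lie wholly inside the genes as GENCODE annotates them, at starts downstream of the first.
CHD1: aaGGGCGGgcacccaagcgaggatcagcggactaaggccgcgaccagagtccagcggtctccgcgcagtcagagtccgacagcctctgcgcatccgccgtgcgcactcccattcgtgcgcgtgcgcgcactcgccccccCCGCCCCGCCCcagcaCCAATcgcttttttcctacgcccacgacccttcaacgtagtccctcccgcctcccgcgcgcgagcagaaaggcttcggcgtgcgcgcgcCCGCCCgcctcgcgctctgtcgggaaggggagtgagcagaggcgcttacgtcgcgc
CHD2: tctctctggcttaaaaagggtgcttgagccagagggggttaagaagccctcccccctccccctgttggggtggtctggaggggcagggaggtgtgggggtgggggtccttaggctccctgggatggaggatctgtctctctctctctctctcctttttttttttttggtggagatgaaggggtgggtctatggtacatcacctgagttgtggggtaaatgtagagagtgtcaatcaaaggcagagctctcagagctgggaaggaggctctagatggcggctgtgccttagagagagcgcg
BCL7B: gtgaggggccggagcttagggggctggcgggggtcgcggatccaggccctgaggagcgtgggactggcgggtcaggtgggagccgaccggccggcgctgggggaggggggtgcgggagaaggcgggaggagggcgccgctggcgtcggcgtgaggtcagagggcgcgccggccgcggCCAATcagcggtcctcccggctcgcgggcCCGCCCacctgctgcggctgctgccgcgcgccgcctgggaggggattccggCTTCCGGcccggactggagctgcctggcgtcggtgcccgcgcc
BCL7C: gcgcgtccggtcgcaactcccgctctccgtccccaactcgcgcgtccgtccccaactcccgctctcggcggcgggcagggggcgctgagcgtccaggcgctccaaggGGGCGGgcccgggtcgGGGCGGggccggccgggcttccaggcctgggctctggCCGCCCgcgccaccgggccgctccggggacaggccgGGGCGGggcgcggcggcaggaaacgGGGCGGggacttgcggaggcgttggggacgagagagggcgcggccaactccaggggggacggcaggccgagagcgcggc

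The CHD1 window held 44 CpG dinucleotides and 5 motif matches, 4 of them GC boxes of which a pair overlap by 1 base. The CHD2 window, at a start inside the gene, held 3 CpG dinucleotides, the fewest among the 39 member windows, and none of these motifs. The BCL7B window held 1 GC box, 1 CCAAT box and 1 ETS core, and the BCL7C window held 5 GC boxes. RefSeq windows were found for 39 of 47 members. The first listed was used for each gene, which need not be its main start. A GC box was in 30 of these 39 (76.9%), in 68.8% of the 10588 windows of protein-coding genes tested and in 44.9% of all 34796 windows. The members' windows had a median of 30 CpG dinucleotides, beside 26 in those of tested protein-coding genes and 14 in all. The CCAAT box was in 12 member windows (30.8%), in 36.7% of tested protein-coding windows and in 34.6% of all windows. The ETS core was in 5 member windows (12.8%), with 19.2% of tested protein-coding windows and 10.2% of all windows. A TATA box was in 1 member window (2.56%), that of BICRA, with 5.95% of tested protein-coding windows and 11.6% of all. The GATA core was in 3 member windows (7.69%, beside 4.94% of tested protein-coding and 10.4% of all), the YY1 core in 2 (5.13%, beside 5.33% and 2.89%) and the NRF1 core in 0 (beside 2.27% and 1.23%). These matches are descriptions of letters and show no binding.

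CHD3, CHD4 and CHD5 are the alternative ATPases of the NuRD complex, which joins remodeling to histone deacetylation. CHD4, the most abundant of all 17 ATPases per kilobase of exon with DMSO (28.6 CPM), stood at 361, 364 and 364 CPM with DMSO and 327, 349.6 and 331 CPM upon treatment and fell slightly (log2 fold change -0.11, SE 0.040, edgeR adjusted p = 0.023). The call of CHD4 was lost without DMSO replicate 2 (edgeR adjusted p = 0.0539), AZD4573 replicate 1 (0.0559) or AZD4573 replicate 3 (0.0676; 1.82e-10 to 0.104 over all alternatives), and 53.5% of its exon bases are shared, most with an unnamed gene on the same strand whose counts upon treatment were 37, 760 and 13. CHD3 stood at 241, 257 and 263 CPM with DMSO and 292, 310.3 and 304 CPM upon treatment and rose by TMM (log2 fold change 0.25, SE 0.044, edgeR adjusted p = 0.00016; -0.49 with mitochondrial scaling). CHD5, known from neurons and as a tumor suppressor, stood at 3.99, 4.42 and 4.49 CPM with DMSO and 8.29, 6.51 and 5.67 CPM upon treatment. The treated libraries of CHD5 were all above the controls but spread widely (log2 fold change 0.66, SE 0.13, edgeR adjusted p = 0.000529; -0.070 with mitochondrial scaling). Without AZD4573 replicate 1, the log2 fold change of CHD5 was 0.50 and no longer reached the fold limit, and with library size alone it was 0.56, so that SMARCD3 was then the 1 member called higher.

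Of the 4 genes CHD6 to CHD9, 3 fell (37.4% of all genes did). CHD7, mutated in CHARGE syndrome, stood at 110.3, 113 and 116 CPM with DMSO and 62.1, 55.3 and 53.0 CPM upon treatment (log2 fold change -0.99, SE 0.058, edgeR adjusted p = 3.44e-09). CHD9 stood at 43.5, 44.7 and 43.0 CPM with DMSO and 29.1, 25.2 and 21.9 CPM upon treatment (log2 fold change -0.78, SE 0.081, edgeR adjusted p = 1.09e-06). CHD8, a regulator of beta-catenin signaling linked to autism, stood at 165, 168 and 165 CPM with DMSO and 127, 137 and 122 CPM upon treatment (log2 fold change -0.37, SE 0.047, edgeR adjusted p = 8.71e-06). CHD6 stood at 44.5, 46.6 and 46.5 CPM with DMSO and 49.6, 46.4 and 43.5 CPM upon treatment, and its groups overlapped (log2 fold change 0.020, SE 0.056, edgeR adjusted p = 0.758; -0.72 with mitochondrial scaling).

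In all, 5 of the 9 CHD genes fell (37.4% of all genes did), 3 of them past the fold limit (23.7% of all genes), and 3 rose by TMM (37.3% of all genes), all 3 of which were negative with mitochondrial scaling.

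The ATPases of the INO80 family fell more than most of the members. INO80, which slides nucleosomes at promoters and replication forks (chr15:40978880-41116280, minus strand, GRCh38), stood at 76.1, 80.0 and 80.8 CPM with DMSO and 33.7, 29.9 and 26.4 CPM upon treatment and fell to 37.9% of the DMSO level (log2 fold change -1.40, SE 0.073, edgeR adjusted p = 1.36e-09). SRCAP, which deposits H2A.Z, stood at 216, 221 and 229.5 CPM with DMSO and 108, 113 and 99.3 CPM upon treatment (log2 fold change -1.05, SE 0.052, edgeR adjusted p = 7.47e-10). Of the exon bases of SRCAP, 76.5% are shared with other genes, most with a readthrough gene on the same strand (ENSG00000282034) that stood at 55.4, 73.0 and 75.6 CPM with DMSO and 84.1, 70.8 and 73.3 CPM upon treatment and overlapped between groups. INO80C, a subunit of INO80, stood at 12.2, 11.6 and 11.8 CPM with DMSO and 8.41, 6.03 and 6.32 CPM upon treatment (log2 fold change -0.78, SE 0.11, edgeR adjusted p = 2.47e-05).

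The other INO80 subunits stayed near the controls by TMM. INO80B, INO80D and INO80E had log2 fold changes of -0.078, -0.076 and -0.052 and edgeR adjusted p of 0.283, 0.333 and 0.361, and their groups overlapped. With mitochondrial scaling all 3 were lower, at -0.81, -0.81 and -0.79 (edgeR adjusted p = 5.91e-08, 1.07e-07 and 8.08e-09). With library size alone all 3 also passed the test in the lower direction (0.0311, 0.0438 and 0.0156), and INO80B and INO80D did so without DMSO replicate 1 (0.0314 and 0.0331). Their highest adjusted p over all alternatives were 0.566, 0.616 and 0.791. Of the exon bases of INO80B, 76.0% are shared with the readthrough gene INO80B-WBP1 on the same strand, which did not exceed 1.89 CPM.

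Both ATPases that act outside these complexes fell. SMARCAD1, which remodels chromatin behind the replication fork and at DNA ends, stood at 66.2, 67.3 and 65.3 CPM with DMSO and 34.8, 29.4 and 31.0 CPM upon treatment (log2 fold change -1.06, SE 0.061, edgeR adjusted p = 3.24e-09). SMARCAL1, the annealing helicase that restarts stalled forks, stood at 25.2, 25.7 and 26.5 CPM with DMSO and 21.9, 19.3 and 18.8 CPM upon treatment (log2 fold change -0.37, SE 0.067, edgeR adjusted p = 0.000215).

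Over all 17 ATPases of the list, 10 fell (37.4% of all genes did), 6 of them past the fold limit (23.7% of all genes), 5 rose by TMM but were all negative with mitochondrial scaling (37.3% of all genes rose by TMM) and CHD6 and SMARCA1 were not past the test, with a median log2 fold change of -0.37. The 5 were SMARCA2, SMARCA4, CHD2, CHD3 and CHD5. Per kilobase of exon the order with DMSO began with CHD4 (28.6 CPM), SMARCA5 (25.0), CHD3 (23.0), SMARCA4 (17.8) and SRCAP (16.0). Upon AZD4573 treatment it began with CHD3 (27.4 CPM), CHD4 (26.4), SMARCA4 (19.8), SMARCA5 (17.7) and SMARCA2 (14.6). At the low end CHD5 stood at 0.426 and 0.676 CPM and SMARCA1 at 0.0346 and 0.0421 CPM per kilobase. These lengths sum every annotated exon, and a gene that uses few of them is understated.

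**Figure D3:**
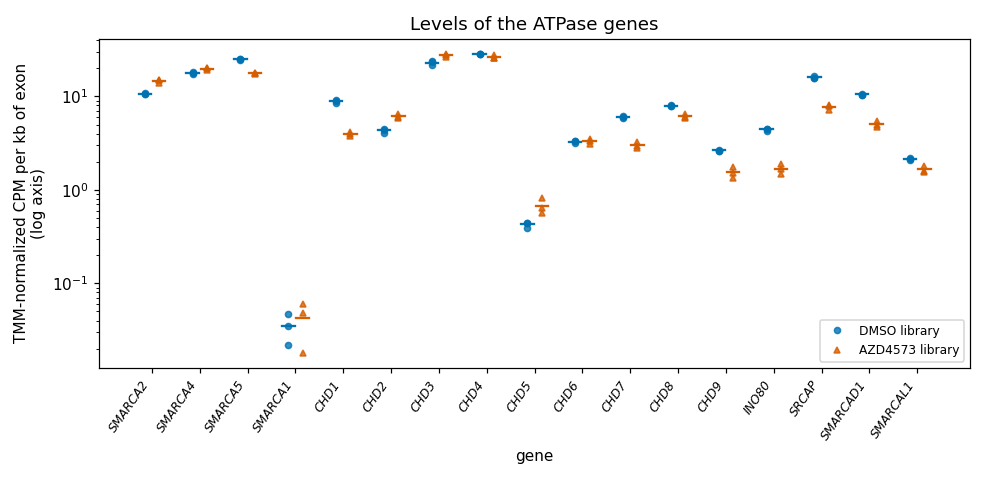
TMM-normalized CPM per kilobase of exon (y axis, log scale) of the 17 ATPase genes (x axis) in DMSO libraries (circles) and AZD4573 libraries (triangles), with lines at the group means. CHD1 and CHD2 change places between the groups (8.92 and 4.34 with DMSO, 3.98 and 6.13 with AZD4573), and SMARCA1 is the only ATPase below 0.1 in all libraries.

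Because the families hold many close relatives, the ratio of 15 pairs was taken within each library as counts per kilobase of exon, which no scaling of libraries changes. The pairs do not all share a place: ARID1A and ARID2, and likewise BRD7 and BRD9, are listed here under different complexes. The ratios thus do not measure exchange of subunits within a complex. In 12 of the 15 pairs the ratios of the 3 treated libraries lay all beyond those of the 3 controls, in either direction. Single genes did so in 38.7% (lower) and 39.0% (higher) of all genes tested. As a pair counts in both directions, its background is these shares added together, and 12 of 15 is close to that sum. For each of these 12 the exact permutation test gave p = 0.1 (two-sided), the smallest that 3 against 3 libraries allow, or 0.125 after Benjamini-Hochberg adjustment over the 15 pairs. This test cannot give a p under 0.05 with 3 against 3 libraries, and the ratios are given per library or as their change.

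The log2 ratio of BCL7B to BCL7C was 2.59, 2.71 and 2.64 with DMSO and 0.92, 0.76 and 0.45 with AZD4573, which is a 3.83-fold lower ratio. BCL7A gained 1.48 on BCL7B on the log2 scale, in a pair that shares BCL7B with the former. The log2 ratio of CHD1 to CHD2 was 1.06, 1.06 and 1.00 with DMSO and -0.62, -0.63 and -0.62 with AZD4573, a 3.16-fold lower ratio with hardly any spread between libraries. That of BICRA to BICRAL was -0.087, 0.18 and 0.23 with DMSO and -1.14, -1.20 and -1.34 with AZD4573. CHD1 was thus the more abundant of its pair per exon length with DMSO and the less abundant upon treatment, while BICRA went from near equality with BICRAL to well below it.

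In smaller steps, the balance of SMARCD1 to SMARCD2 moved by -0.67, of CHD7 to CHD8 by -0.63 and of BRD7 to BRD9 by -0.16 on the log2 scale. ARID1A gained on ARID2 by 0.87 and on ARID1B by 0.34, CHD6 on CHD9 by 0.81, CHD3 on CHD4 by 0.37 and SMARCA2 on SMARCA4 by 0.30. No separation was seen for SMARCC1 to SMARCC2 (0.011, exact p = 0.9), SS18 to SS18L1 (0.094, exact p = 0.3) or SMARCA1 to SMARCA5 (0.68, exact p = 0.3, with few counts of SMARCA1).

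**Figure D4:**
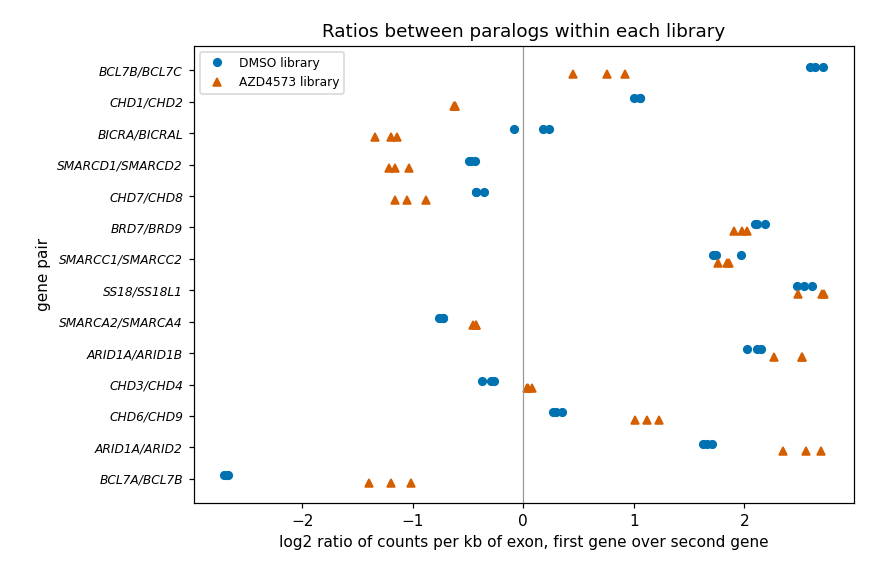
Log2 ratio of counts per kilobase of exon between the genes of 14 paralog pairs (y axis) in each DMSO library (circles) and AZD4573 library (triangles); the pair of SMARCA1 and SMARCA5 is left out for its few counts. The ratio of CHD1 to CHD2 crosses 0, from 1.00 to 1.06 with DMSO to -0.63 to -0.62 with AZD4573.

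Partner subunits of these remodelers, and further ATPases of the SNF2 type, that the name rule did not take in were read from a list of 48 genes. All are called partners here, although 8 of them are such ATPases and not subunits of the listed complexes. Of these 8, 3 were called lower (37.5%, beside 23.7% of all genes). ACTL6B, with at most 1 count in a library, was not tested. Of the 47 tested, 12 were called lower (25.5%, beside 23.7% of all genes) and 1 higher (2.13%, beside 22.7%). By the test alone 30 were lower (37.4% of all genes were) and 11 higher (37.3%), with a median of -0.25. With mitochondrial scaling 36 were called lower (53.4% of all genes were) and 0 higher (10.0% of all genes). Without AZD4573 replicate 1 the number called higher was 2. The largest falls were in ACTR8, an actin-related INO80 subunit, from 43.9, 41.9 and 42.7 CPM to 13.3, 10.6 and 10.5 CPM (log2 fold change -1.91, SE 0.081, edgeR adjusted p = 2.6e-10), in ERCC6, the CSB ATPase of transcription-coupled repair, from 28.3, 28.9 and 27.3 CPM to 10.1, 6.96 and 8.01 CPM (log2 fold change -1.76, SE 0.10, edgeR adjusted p = 3.83e-09), and in ACTR5, another actin-related INO80 subunit, from 23.0, 20.2 and 22.2 CPM to 7.62, 6.35 and 6.54 CPM (log2 fold change -1.68, SE 0.086, edgeR adjusted p = 1.1e-09). The single partner called higher was CECR2, an ISWI partner with a bromodomain, at 5.15, 5.80 and 5.72 CPM with DMSO and 8.14, 11.0 and 9.75 CPM upon treatment (log2 fold change 0.79, SE 0.11, edgeR adjusted p = 2.31e-05; 0.050 with mitochondrial scaling). Of 16 partners in the INO80, SRCAP and EP400 complexes, 10 fell and 4 rose by TMM, again beside 37.4% and 37.3% of all genes.

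The change of the members had little relation to gene length or level. The Spearman correlation of the log2 fold change with the genomic span was 0.08 across the 47 members and -0.03 across the 13423 protein-coding genes tested, although the members were longer (median span 70.7 kb against 31.5 kb). With the level in DMSO it was 0.01 across the members and -0.20 across protein-coding genes. These are correlations across genes measured in the same 6 libraries, and genes are not independent replicates.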

How the data were processed

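The authors trimmed reads with Cutadapt 2.3, aligned them to GRCh38 with STAR 2.7.8a and deposited expected counts per gene from RSEM 1.3.3, in whole numbers and not normalized. RSEM's defaults, which the study's methods state, ignore strand, but the library kit named there keeps it, so that the use of strand is uncertain. Poly(A) selection is given in the labels and rRNA depletion in the study's methods. The table also held 5 entries that name no gene, with 0 counts. All 6 libraries were used, grouped by label. A minimum count of 10 (edgeR's filter) left 17678 genes, to which TMM factors and the quasi-likelihood test of edgeR 4.0.16 (R 4.3.3) were applied, with group as the only term. Values are TMM-normalized CPM, markers excepted (CPM by library total), and errors of fold changes are SE. Exons and positions came from GENCODE 44 and promoter windows from RefSeq. The procedure was tested on simulated data. A further marker gene is not reported here. The name rule uses no measured value, but it and the lists and pairs were chosen with earlier results of these data known. Values per library were given for members called, for ATPases and for pairs whose ratio separated the groups, and partners were named by the largest changes. No library was a copy of another: pairs within a group gave 5.51 to 20.4 for chi-square divided by its degrees of freedom. The alternatives were RLE factors, library size, 13 mitochondrial mRNAs, other filters, each library left out, a replicate block, DESeq2 1.42.0, a fold change of at least 2, unadjusted p-values and, for ratios, counts plus 1.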

Additional observations from a re-analysis of the deposited data

How the results depend on the processing

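Scaling mattered most. With mitochondrial scaling 34 members were called lower and 0 higher (44 and 0 by the test alone), and the median of the members was -0.89. Among the partners 36 were called lower and 0 higher. Of all genes, 53.4% were called lower with this scaling and 10.0% higher. The log2 fold change then turned negative for BRD9 (-0.73), CHD6 (-0.72), SMARCE1 (-0.65), PHF10 (-0.64), SMARCA4 (-0.59), DPF3 (-0.56), CHD3 (-0.49), SMARCD2 (-0.48), SMARCA1 (-0.44), SMARCC2 (-0.43), SMARCC1 (-0.41), BCL7C (-0.41), PBRM1 (-0.37), SMARCA2 (-0.29), CHD2 (-0.24), BICRAL (-0.20) and CHD5 (-0.070). With library size alone the median was -0.26, 1 member was called higher and 11 rose by the test alone. BRD9 (-0.094), CHD6 (-0.084), SMARCE1 (-0.010) and PHF10 (-0.0069) then turned negative. Without a filter the median was -0.19, 11 members rose by the test alone, and BRD9 (-0.031) and CHD6 (-0.022) turned negative. SMARCA4, DPF3, PHF10 and SMARCE1 were then not past the test (edgeR adjusted p = 0.069, 0.138, 0.414 and 0.445). A fold change of at least 2 left 8 members lower and 0 higher. At least 10 counts in every library gave 2 partners higher and left BCL7A (edgeR adjusted p = 0.122) and CHD4 (0.104) not past the test. With 1 library left out, 14 members were called lower and 1 to 2 higher, 24 to 27 fell and 12 to 14 rose by the test alone, the median was -0.17 to -0.15, and 11 to 12 partners were called lower and 1 to 2 higher. Signs turned for BRD9 (-0.034 to 0.035) and CHD6 (-0.032 to 0.061) without DMSO replicate 1 or AZD4573 replicate 1, for SMARCA1 (-0.045 to 0.64) without AZD4573 replicate 3, and for the ratio of SMARCC1 to SMARCC2 (-0.036 to 0.091) without DMSO replicate 2 or 3 or AZD4573 replicate 2. None of these was past the test. The cause was not tested. Of 610 member values under 13 alternatives, 541 kept direction and side of the threshold, and 35 members did so under every alternative but mitochondrial scaling.

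Deviations of libraries with the same replicate number correlated at -0.0077, 0.0894 and -0.0501. These values show no sign that the numbers pair the samples, although such a check cannot exclude it. With the replicate number as a block, 14 members were called lower and 2 higher, as without it, and BCL7A, SMARCE1 and PHF10 were no longer past the test. SMARCA1 was the member with too few counts for a difference of its size to be detected.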
